A study of Mus musculus with 4 samples.

Results

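Small leucine-rich proteoglycans (SLRPs) are secreted matrix proteins that bind collagen fibrils, and versican is a large proteoglycan that binds hyaluronan. RNA-Seq libraries of type 2 innate lymphoid cells (ILC2s) sorted from mouse lungs were examined for 10 such genes, chosen by symbol as rows of the deposited count table, out of 49315 genes in all. They were the class I SLRPs decorin (*Dcn*), biglycan (*Bgn*) and asporin (*Aspn*), the class II SLRPs lumican (*Lum*), fibromodulin (*Fmod*), prolargin (*Prelp*) and osteomodulin (*Omd*), the class III SLRP osteoglycin (*Ogn*), the class V SLRP podocan (*Podn*), and versican (*Vcan*). All 10 had reads in every library. Of these, 9 reached 1 CPM, a count scaled to a common library size, in at least 1 library and were compared, and *Omd* did not.

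SLRP core proteins fold into a curved solenoid of leucine-rich repeats whose inner face contacts fibrillar collagen, and together they set the diameter and spacing of fibrils. Decorin and biglycan carry chondroitin or dermatan sulfate chains and bind TGF-β, and soluble biglycan is known as a ligand of Toll-like receptors 2 and 4. Versican makes hydrated, hyaluronan-rich matrix that is laid down early after lung injury, and it is cleaved by ADAMTS proteases. In lung, fibroblasts are the usual source of SLRPs, while versican is also made by monocytes and macrophages.

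WT and *Hps1*-/- mice were given PBS or bleomycin, which made 4 groups with 1 library each. The groups are named PBS-WT and BLEO-WT for the WT mice and PBS-HPS1 and BLEO-HPS1 for the *Hps1*-/- mice. *Hps1* is mutated in Hermansky-Pudlak syndrome type 1, in which pulmonary fibrosis is common, and bleomycin is a DNA-damaging drug used to induce lung fibrosis. The *Hps1* mutation is in every cell of these mice, so a difference between genotypes is not a difference of ILC2s alone. The study's methods describe adult mice of both sexes and give bleomycin by intraperitoneal or intratracheal routes, and they do not tie an age, sex, route, number of mice or pooling to these libraries. Cells were gated as Lineage-Thy1.2+ICOS+T1/ST2+ and kept in culture with IL-2 before RNA was extracted. By the labels, the PBS libraries came from 22405 WT and 38873 *Hps1*-/- cells, and the bleomycin libraries from 84166 WT and 128647 *Hps1*-/- cells.

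Reads per library ranged from 72513619 to 87638154. Levels are CPM scaled by trimmed mean of M values (TMM) factors, which correct library size for a few dominant genes and ranged from 0.816 to 1.27. The 3-read floor lay between 0.0303 and 0.0475 CPM. A ratio is the difference of log2 CPM between 2 libraries after adding a prior count of 2, and a gene was called when it was at least 2-fold apart. No group had a replicate, so no comparison of 2 libraries has a test, and no model over all 4 was fitted. Intervals of ratios between 2 libraries, and of shares and ratios within a library, are exact 95% Clopper-Pearson intervals of the reads. Those of levels per kilobase are exact 95% Poisson intervals. All intervals cover counting error only and say nothing of the spread between mice. *Hps1* itself had 38.3 CPM in PBS-WT and 48.4 in BLEO-WT, against 16.6 in PBS-HPS1 and 21.3 in BLEO-HPS1, lower in both *Hps1*-/- libraries.

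The libraries held RNA of genes typical of cells other than ILC2s. The Lineage gate is described as leaving out cells with CD3, CD11b, CD45R/B220, Ly76, Ly6G or Ly6C, and the study states a high purity after the sort. *Gata3*, a transcription factor that ILC2s need, had 38.4, 39.1, 25.1 and 26.9 CPM in the order PBS-WT, PBS-HPS1, then BLEO-WT, BLEO-HPS1, which is used for all rows of 4 values. In the same order, lysozyme 2 (*Lyz2*), a macrophage gene, had 9428, 6083, 13145 and 12344 CPM, and surfactant protein C (*Sftpc*), an alveolar epithelial gene, had 816, 538, 343 and 185. Fibroblast genes were also present, with *Pdgfra*, the receptor that marks lung fibroblasts, at 16.5, 31.0, 22.4 and 35.0 CPM. The SLRP values are therefore values of the sorted and cultured preparation. In RNA of such a mixture, fewer cells of a type and less RNA per cell cannot be told apart.

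The 10 genes lie at 6 places on 5 chromosomes of GRCm38. *Dcn* (chr10:97479609-97518143, plus strand) and *Lum* (chr10:97565128-97572703, plus strand) are neighbours on chromosome 10. *Prelp* (chr1:133910304-133921414, minus strand) and *Fmod* (chr1:134037254-134048277, plus strand) are near each other on chromosome 1. *Aspn* (chr13:49544443-49567565), *Omd* (chr13:49582462-49592822) and *Ogn* (chr13:49608046-49624501) follow each other on the plus strand of chromosome 13, where *Vcan* lies far downstream (chr13:89655312-89742509, minus strand). *Bgn* is on the X chromosome (chrX:73483602-73495933, plus strand) and *Podn* on chromosome 4 (chr4:108014791-108096445, minus strand). Another annotated gene overlaps 6 of the 10, but exons are shared in 2: 7 bases of *Aspn* with *Cenpp*, and 350 bases of *Prelp* with *Gm15851*, an antisense gene with 3 to 7 reads. *Cenpp* spans *Aspn*, *Omd* and *Ogn* on the opposite strand and had 74 to 125 reads, so that, as strand use in counting is not known, reads of *Cenpp* cannot be told apart from the 15 to 121 reads of *Aspn* where the exons meet.

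RefSeq promoter sequences (GRCm38.p6) were at hand for 8 of the 10 genes, not for *Dcn* and *Lum*. The 250 bases before the annotated start are shown for a gene that was high in every library (*Bgn*), for the chromosome 13 pair that was lower after bleomycin in WT mice as counted (*Aspn* and *Ogn*), and for *Vcan*, which was lower as counted in both *Hps1*-/- libraries. Capitals mark a match on either strand to the TATA box (TATAAA), the CCAAT box, the GC box (GGGCGG), the AP-1 motif (TGANTCA) or the TEAD motif (GGAATG).
Bgn, chrX:73483351-73483600, plus strand: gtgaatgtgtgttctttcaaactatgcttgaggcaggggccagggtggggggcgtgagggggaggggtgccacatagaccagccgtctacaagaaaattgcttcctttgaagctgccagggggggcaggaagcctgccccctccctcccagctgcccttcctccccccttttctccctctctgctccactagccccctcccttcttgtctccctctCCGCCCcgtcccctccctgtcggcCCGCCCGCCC
Aspn, chr13:49544193-49544442, plus strand: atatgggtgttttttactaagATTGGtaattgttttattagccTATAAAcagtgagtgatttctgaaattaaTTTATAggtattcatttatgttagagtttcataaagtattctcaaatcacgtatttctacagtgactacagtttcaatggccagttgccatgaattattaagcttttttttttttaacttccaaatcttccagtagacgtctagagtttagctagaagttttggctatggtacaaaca
Ogn, chr13:49607765-49608014, plus strand: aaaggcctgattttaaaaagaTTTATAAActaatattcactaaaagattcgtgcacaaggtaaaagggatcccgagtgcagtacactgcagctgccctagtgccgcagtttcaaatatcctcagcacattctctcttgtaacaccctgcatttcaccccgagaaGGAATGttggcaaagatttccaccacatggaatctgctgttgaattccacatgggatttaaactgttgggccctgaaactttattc
Vcan, chr13:89742513-89742762, minus strand: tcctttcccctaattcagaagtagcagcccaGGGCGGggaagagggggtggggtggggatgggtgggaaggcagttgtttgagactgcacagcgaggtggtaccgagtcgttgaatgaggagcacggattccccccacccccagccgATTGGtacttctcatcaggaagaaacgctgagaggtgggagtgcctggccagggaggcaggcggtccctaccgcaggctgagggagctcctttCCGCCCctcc
Exonic bases after the start are not shown. The *Aspn* and *Ogn* promoters were poor in GC, with 30.0% and 42.0%, and each held 2 TATAAA matches far from the start. Both of these matches overlap in *Ogn*. The *Bgn* promoter had 64.4% GC and the *Vcan* promoter 62.4%, with 3 and 2 GC boxes, of which the pair nearest the start overlap in *Bgn*. *Aspn* and *Vcan* also held 1 CCAAT box each. The median over 32851 promoters of this length was 52.4%. Of those promoters, 12.4% held the TATA box, 32.7% the GC box, 33.8% the CCAAT box, 12.6% the TEAD motif and 6.75% the AP-1 motif. The AP-1 motif was not found in any of the 9 promoters of these genes, and the TEAD motif was found in 1, that of *Ogn*. These are matches of letters and not sites of binding.

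Within each library, levels were compared between genes as CPM per kilobase of exon. *Bgn* was the highest of the 10 in all 4 libraries and *Prelp* the second. In PBS-WT, *Bgn* stood at 6.69 CPM per kilobase and *Prelp* at 6.11, followed by *Ogn* at 3.26, *Vcan* at 2.46 and *Dcn* at 2.09. In BLEO-HPS1 the order was *Bgn* at 51.2, *Prelp* at 27.4, *Dcn* at 19.1, *Podn* at 4.89, *Lum* at 3.14, *Fmod* at 2.44, *Ogn* at 2.12 and *Vcan* at 1.22. *Ogn* thus went from rank 3 in PBS-WT to rank 7 in BLEO-HPS1, and *Vcan* from rank 4 to rank 8. *Aspn* and *Omd* were at the bottom in both bleomycin libraries, with 0.598 and 0.0774 CPM per kilobase in BLEO-HPS1. Counting intervals of neighbours in the order overlapped for *Podn*, *Aspn*, *Lum* and *Fmod* in PBS-WT, for *Ogn* with *Dcn* and *Podn* with *Fmod* in PBS-HPS1, for *Ogn* with *Podn*, *Fmod* with *Lum* and *Aspn* with *Omd* in BLEO-WT, and for *Fmod* with *Ogn* in BLEO-HPS1. With the longest transcript as the length, *Ogn* and *Dcn* changed places in PBS-HPS1 and no other place changed.

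**Figure D1:**
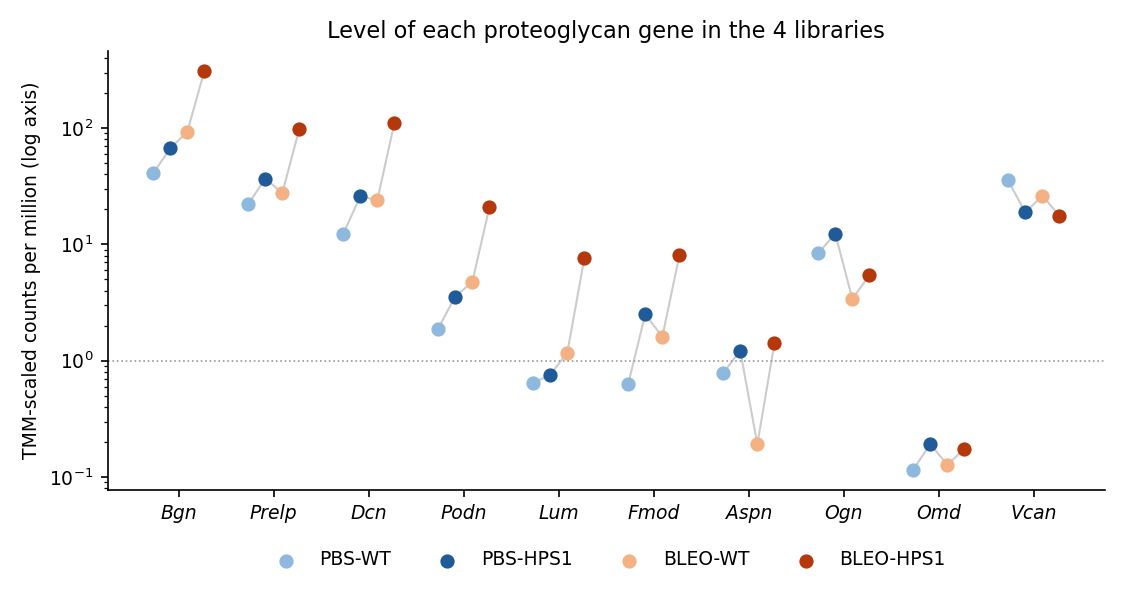
Level of each gene in the 4 libraries as TMM-scaled CPM on a log axis, 1 point per library, with a dotted line at the 1 CPM used as the limit for comparison and grey lines that join the points of a gene. *Bgn*, *Prelp*, *Dcn*, *Podn*, *Lum* and *Fmod* are highest in BLEO-HPS1, and so by a little is *Aspn* (1.41 CPM, against 1.22 in PBS-HPS1). As counted, *Ogn* is lower in both bleomycin libraries, and *Vcan* is lower in both *Hps1*-/- libraries. Corrected for GC content and length, *Ogn* in *Hps1*-/- mice (0.18) and *Vcan* after bleomycin (0.24) turn in direction.

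After bleomycin, 7 of the 9 genes were at least 2-fold higher in *Hps1*-/- than in WT cells and none was at least 2-fold lower. Of all 14840 genes compared, 6.72% were higher and 10.3% lower to that extent. The median log2 ratio of the 9 genes was 2.13, against -0.04 over all genes compared. The 7 genes were *Dcn*, *Bgn*, *Aspn*, *Lum*, *Fmod*, *Prelp* and *Podn*, which cover SLRP classes I, II and V. The 2 genes within 2-fold were *Ogn* and *Vcan*.

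Among class I genes, *Dcn*, which limits fibril width and binds TGF-β, had 952 reads in PBS-WT and 2576 in PBS-HPS1, then 1883 in BLEO-WT and 7039 in BLEO-HPS1. This was 12.2, 26.0, 24.0 and 111 CPM, so that BLEO-HPS1 stood apart from the other 3 libraries and PBS-HPS1 was close to BLEO-WT. The log2 ratio of BLEO-HPS1 over BLEO-WT was 2.21 (95% interval 2.14 to 2.29), a 4.64-fold difference. *Bgn*, the close relative of *Dcn* that carries up to a pair of glycosaminoglycan chains, was at 40.8, 67.1, 93.1 and 312 CPM in the same order, from 3183, 6641, 7302 and 19713 reads. Its log2 ratio was 1.74 (1.71 to 1.78). The levels of *Bgn*, *Lum* and *Podn* were each higher at every step of this order. The libraries were made from more cells at every step too, and the part of cell number was not tested. *Aspn*, a class I SLRP without a glycosaminoglycan attachment site, had far fewer reads, 61, 121, 15 and 89. Its CPM of 0.783, 1.22, 0.191 and 1.41 put BLEO-WT well below the other 3 libraries. The log2 ratio of 2.73 had a wide interval (2.08 to 3.78), since it rests on the 15 reads of BLEO-WT.

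Class II genes carry keratan sulfate or no chains and bind collagen with different affinities. *Lum*, which is needed for regular fibril spacing, had 50, 75, 92 and 486 reads, or 0.641, 0.757, 1.17 and 7.69 CPM. The first 3 libraries were within 2-fold of each other as counted, and BLEO-HPS1 was far above them. Its log2 ratio to BLEO-WT was 2.69 (2.39 to 3.05), or 6.44-fold. *Fmod*, which shares a collagen binding site with *Lum*, had 49, 248, 126 and 510 reads, or 0.629, 2.50, 1.61 and 8.07 CPM. Here both *Hps1*-/- libraries were above both WT libraries, and the log2 ratio was 2.31 (2.04 to 2.62). *Prelp*, which binds the heparan sulfate of perlecan through a basic amino terminus, had 1723, 3647, 2175 and 6265 reads, or 22.1, 36.8, 27.7 and 99.2 CPM. It too was higher in each *Hps1*-/- library than in both WT libraries, and its log2 ratio was 1.84 (1.77 to 1.91). *Omd*, best known from bone, had 9, 19, 10 and 11 reads, which is 0.115 to 0.192 CPM, and no difference was detectable at this depth (log2 ratio 0.38, interval -0.93 to 1.84).

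*Podn*, a class V SLRP that binds collagen type I, had 147, 353, 373 and 1320 reads, or 1.89, 3.57, 4.76 and 20.9 CPM. Its log2 ratio was 2.13 (1.97 to 2.30), close to that of *Dcn*. *Ogn*, a class III SLRP also known as mimecan, had 653, 1228, 267 and 343 reads, or 8.38, 12.4, 3.41 and 5.43 CPM. Unlike the genes above, it was lower in both bleomycin libraries than in both PBS libraries, and its log2 ratio of BLEO-HPS1 over BLEO-WT was 0.67 (0.44 to 0.91). *Vcan* had 2768, 1865, 2056 and 1117 reads, or 35.5, 18.8, 26.2 and 17.7 CPM. It was the 1 gene of the 10 that was lower in both *Hps1*-/- libraries than in both WT libraries, with a log2 ratio of -0.57 (-0.67 to -0.46) after bleomycin, which turned to 0.24 with GC content and length corrected for.

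With PBS, 2 of the 9 genes were at least 2-fold higher in *Hps1*-/- than in WT cells and none was at least 2-fold lower, where 2.16% of all genes compared were higher and 3.11% lower to that extent. These were *Fmod*, with a log2 ratio of 1.95 (1.55 to 2.47) or 3.87-fold, and *Dcn*, with 1.09 (0.98 to 1.20). The median of the 9 genes was 0.72, against -0.19 over all genes. *Podn* (0.91), *Prelp* (0.74), *Bgn* (0.72), *Aspn* (0.63), *Ogn* (0.56) and *Lum* (0.23) were within 2-fold, the last with an interval that included 0 (-0.30 to 0.79). *Vcan* was again on the other side, at -0.91 (-1.0 to -0.83), the lowest value of the 9. With total counts in place of TMM factors, or with upper-quartile factors, *Podn* was also past 2-fold. Corrected for GC content and length, 1 gene was higher and 1 lower, with *Dcn* (0.98) inside 2-fold and *Vcan* (-1.17) past it.

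In WT mice, bleomycin and PBS libraries differed at least 2-fold in 5 of the 9 genes, 3 higher and 2 lower, where 5.28% of all genes were higher and 8.22% lower. *Fmod* and *Podn* both had a log2 ratio of 1.32, with intervals of 0.87 to 1.86 and 1.06 to 1.62, and *Bgn* had 1.19 (1.13 to 1.25). *Dcn* at 0.97 (0.86 to 1.09) and *Lum* at 0.85 (0.36 to 1.40) lay just below 2-fold, and *Prelp* was at 0.33 (0.24 to 0.42). The lower genes were both from the chromosome 13 cluster. *Omd*, which lies between them, was not compared, with 9 and 10 reads and a log2 ratio of 0.12 (-1.31 to 1.62). *Aspn* went from 61 to 15 reads, a log2 ratio of -1.90 (-2.95 to -1.20), and *Ogn* from 653 to 267, a log2 ratio of -1.29 (-1.51 to -1.09). *Vcan* was at -0.44 (-0.52 to -0.35). The median of the 9 genes was 0.85, against 0.09 over all genes. With total counts *Bgn* was at 0.92, inside 2-fold. Corrected for GC content and length, 5 genes were higher and 1 lower, with *Dcn* (1.75) and *Lum* (1.15) past 2-fold and *Ogn* (-0.52) inside it.

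In *Hps1*-/- mice, bleomycin and PBS libraries differed at least 2-fold in 7 of the 9 genes, 6 higher and 1 lower, where 26.2% of all genes were higher and 19.6% lower. *Lum* had the largest log2 ratio of the 10 genes, 3.30 (2.99 to 3.72), a 9.86-fold difference. *Podn* followed with 2.54 (2.38 to 2.72), *Bgn* with 2.22 (2.18 to 2.26), *Dcn* with 2.10 (2.03 to 2.16), *Fmod* with 1.68 (1.47 to 1.91) and *Prelp* with 1.43 (1.37 to 1.49). The gene that was lower was *Ogn*, at -1.19 (-1.37 to -1.02), a call that was lost with GC content and length corrected for (0.18). *Aspn* was at 0.20 with an interval that included 0 (-0.21 to 0.61) and at -0.43 with total counts, and *Vcan* at -0.09 (-0.20 to 0.02). The median was 1.68, against 0.25 over all genes. With total counts *Prelp* was at 0.79, inside 2-fold. Corrected for GC content and length, 7 genes were higher and none lower, with *Aspn* at 1.73 and *Vcan* at 1.49 past 2-fold and *Prelp* at 0.87 inside it.

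**Figure D2:**
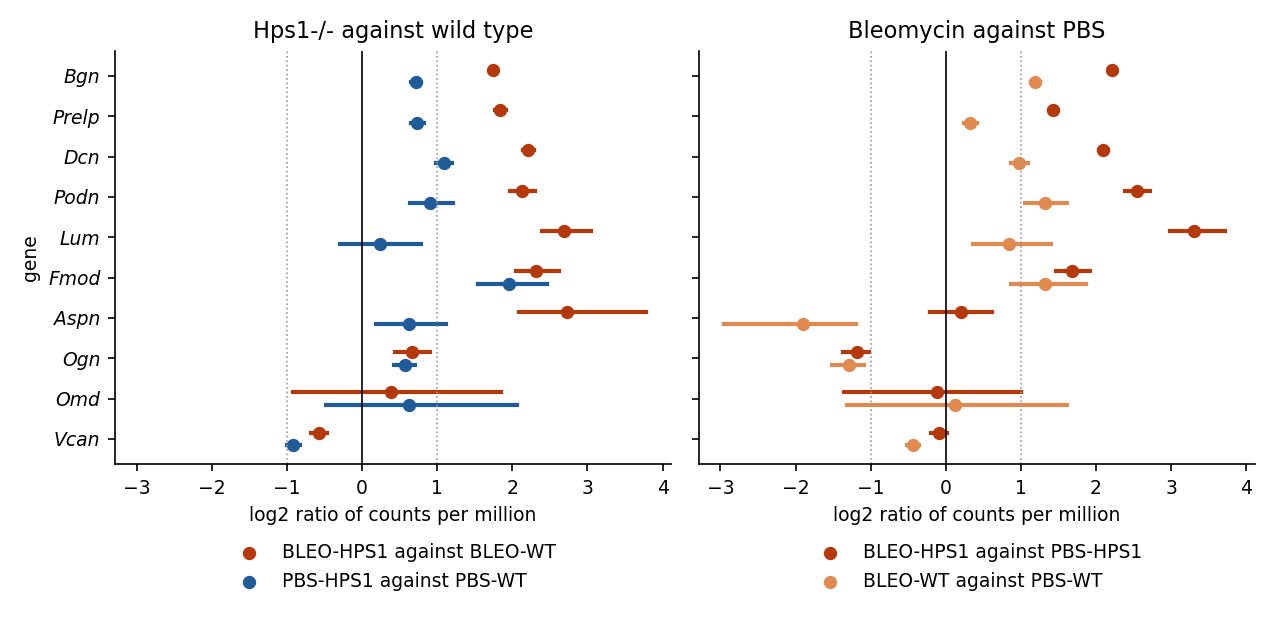
Log2 ratios of the 10 genes between libraries with 95% counting intervals as bars, on the left *Hps1*-/- against WT after bleomycin (red) and with PBS (blue), on the right bleomycin against PBS in *Hps1*-/- (red) and WT (orange). Dotted lines mark 2-fold. After bleomycin 7 genes lie to the right of 2-fold on the left side, while *Vcan* lies to the left of 0 in both genotype comparisons, and *Ogn* is past 2-fold lower in both bleomycin comparisons, as counted. Corrected for GC content and length, *Vcan* after bleomycin (0.24) and *Ogn* in *Hps1*-/- mice (0.18) turn in direction.

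For 6 of the 9 genes the bleomycin ratio, bleomycin over PBS on the log2 scale, in *Hps1*-/- mice exceeded that in WT mice by at least 1, and for none was it smaller by as much. Of all genes compared, 16.3% were larger and 11.2% smaller by that amount. *Lum* had a difference of 2.46 (1.85 to 3.06) and *Aspn* of 2.10 (1.20 to 3.01). For *Podn* it was 1.22 (0.90 to 1.54), for *Dcn* 1.12 (0.99 to 1.25), for *Prelp* 1.10 (0.99 to 1.21) and for *Bgn* 1.03 (0.96 to 1.10), so that these 4 genes lay close to the 2-fold limit. *Fmod*, which was already higher in PBS-HPS1, had 0.36 with an interval that included 0 (-0.17 to 0.88). For *Ogn* the difference was 0.10 (-0.16 to 0.37) and for *Vcan* 0.35 (0.21 to 0.48). The 4 comparisons share libraries, each library being used in 2 of them, so their values are not independent of each other. With total counts, the differences of *Dcn* (0.75), *Bgn* (0.65), *Prelp* (0.72) and *Podn* (0.84) were under 1, and those of *Lum* (2.08) and *Aspn* (1.71) were not, while those of *Fmod* (-0.02), *Ogn* (-0.27) and *Vcan* (-0.03) changed sign. With GC content and length corrected for, as described further on, *Bgn* (0.75), *Prelp* (0.77) and *Podn* (0.85) were also under 1, *Fmod* was at -0.02, and *Vcan* was past it at 1.40, while *Dcn* (1.91), *Lum* (2.82) and *Aspn* (2.73) stayed past it. With upper-quartile factors *Bgn* was at 0.96.

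Shares within a library do not depend on library size or scaling, though they carry the trend with GC content and length described further on. *Vcan* made up 28.8% of the reads of the 10 genes in PBS-WT (95% interval 27.9 to 29.8) and 11.1% in PBS-HPS1, then 14.4% in BLEO-WT and 3.03% (2.86 to 3.21) in BLEO-HPS1. *Bgn* made up 33.2%, 39.6%, 51.1% and 53.4%, and *Dcn* 9.92%, 15.4%, 13.2% and 19.1%. *Ogn* made up 6.81% and 7.32% in the PBS libraries, and 1.87% and 0.930% in the bleomycin libraries. *Prelp* varied little, from 15.2% to 21.7%. These are shares of reads, which favour the long *Vcan* transcript. Per length of exon, *Vcan* made up 11.2%, 3.80%, 5.59% and 1.09%, and *Ogn* 14.9%, 14.1%, 4.09% and 1.89%.

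**Figure D3:**
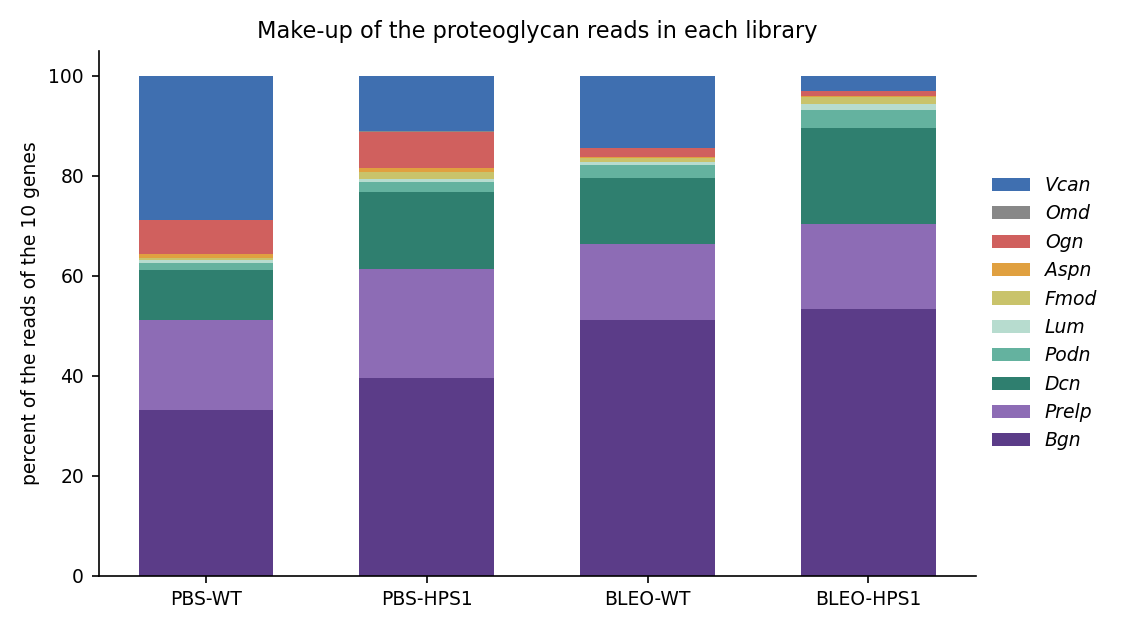
Percent of the reads of the 10 genes that fell on each gene, stacked per library from *Bgn* at the bottom to *Vcan* at the top. The *Vcan* part is 28.8% in PBS-WT and 3.03% in BLEO-HPS1, and the *Ogn* part is smaller in both bleomycin libraries.

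Fibrillar collagens, the main partners of SLRPs in matrix, differed more between the libraries than the 10 genes did in sum. The summed level of *Col1a1*, *Col1a2* and *Col3a1*, the chains of collagen types I and III, was 135 CPM in PBS-WT and 241 in PBS-HPS1, then 492 in BLEO-WT and 2525 in BLEO-HPS1, while that of the 10 proteoglycan genes was 123, 169, 182 and 584 CPM in the same order. Per 1000 reads of the 3 collagen genes there were 911, 704, 371 and 231 reads of the 10 genes. *Bgn* gave 302, 279, 189 and 124 reads per 1000 collagen reads, *Prelp* 164, 153, 56.4 and 39.3, and *Dcn* 90.4, 108, 48.8 and 44.1. All 3 were thus lower relative to collagen in both bleomycin libraries than in both PBS libraries. *Podn* moved least by this measure among the more abundant genes, with 14.0, 14.8, 9.67 and 8.27. *Lum* had 4.75, 3.15, 2.38 and 3.05 and *Fmod* 4.65, 10.4, 3.27 and 3.20, and for *Fmod* the intervals of BLEO-HPS1 (2.92 to 3.49) and BLEO-WT (2.72 to 3.89) overlapped. *Ogn* had 62.0, 51.6, 6.92 and 2.15, and *Vcan* had 263, 78.3, 53.3 and 7.0, the widest ranges among genes with over 100 reads in every library.

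**Figure D4:**
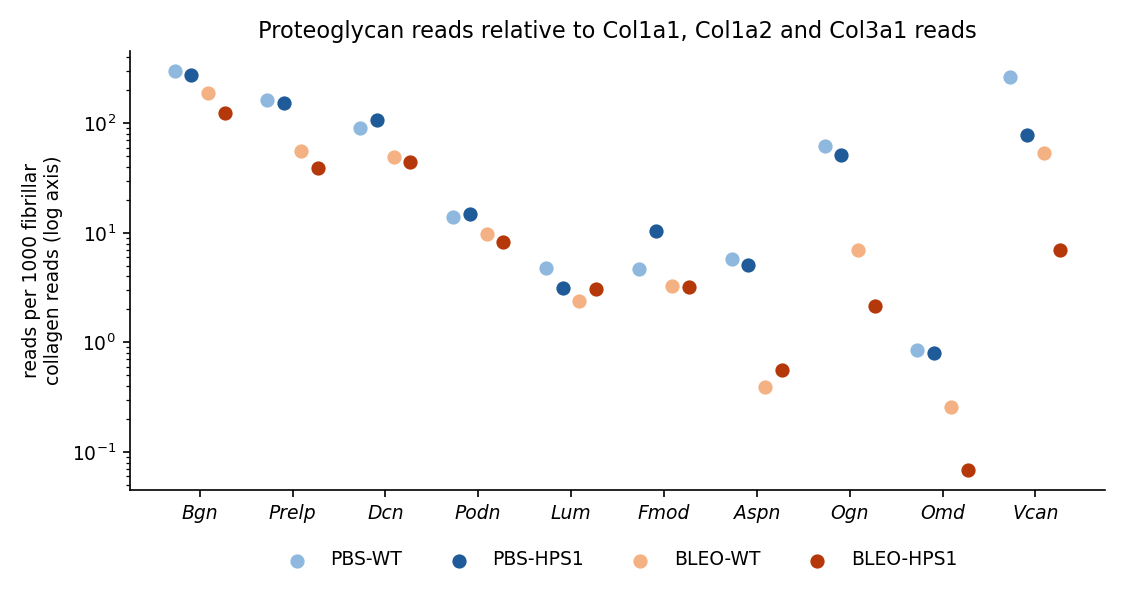
Reads of each gene per 1000 reads of *Col1a1*, *Col1a2* and *Col3a1* in the same library, on a log axis, 1 point per library. For all genes but *Fmod*, *Lum*, *Dcn*, *Podn* and *Aspn* the libraries fall from high to low in the order in which they are drawn, and *Ogn* and *Vcan* span the widest ranges among genes with over 100 reads in every library. The values are not corrected for GC content and length.

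Ratios between these libraries varied with the GC content and length of transcripts, and 4 of the SLRP transcripts are among the poorest in GC. The longest transcripts of *Aspn* (34.3% GC), *Omd* (36.1%), *Ogn* (36.3%) and *Dcn* (37.4%) were among the lowest 2% of genes compared in GC content, whose median was 49.8%. *Lum* had 41.9%, *Vcan* 43.7%, *Bgn* 51.2%, *Fmod* 53.7%, *Prelp* 53.8% and *Podn* 56.3%. *Vcan*, with 12427 bases, was longer than 98.9% of genes compared. Smoothing out the trend of the ratios with GC content and length by loess raised *Dcn* in BLEO-HPS1 against BLEO-WT from 2.21 to 2.89, *Lum* from 2.69 to 3.08 and *Aspn* from 2.73 to 3.15, and brought *Bgn* to 1.51, *Prelp* to 1.52, *Podn* to 1.77 and *Fmod* to 1.97. The 7 genes stayed past 2-fold and *Ogn* joined them at 1.17, while *Vcan* changed sign to 0.24. In BLEO-HPS1 against PBS-HPS1, *Ogn* moved from -1.19 to 0.18, *Vcan* from -0.09 to 1.49, *Aspn* from 0.20 to 1.73 and *Prelp* from 1.43 to 0.87. In BLEO-WT against PBS-WT, *Ogn* moved from -1.29 to -0.52 and *Vcan* from -0.44 to 0.08, and *Aspn* stayed at -1.0, just past 2-fold. The lower level of *Ogn* after bleomycin in *Hps1*-/- mice and that of *Vcan* in BLEO-HPS1 against BLEO-WT therefore did not hold after the correction. In WT mice *Ogn* stayed lower after bleomycin, though inside 2-fold. With PBS, *Vcan* was lower in *Hps1*-/- both before (-0.91) and after it (-1.17), and *Fmod* was higher (1.95 and 1.99), whereas *Dcn* moved from 1.09 to 0.98, just inside 2-fold.

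**Figure D5:**
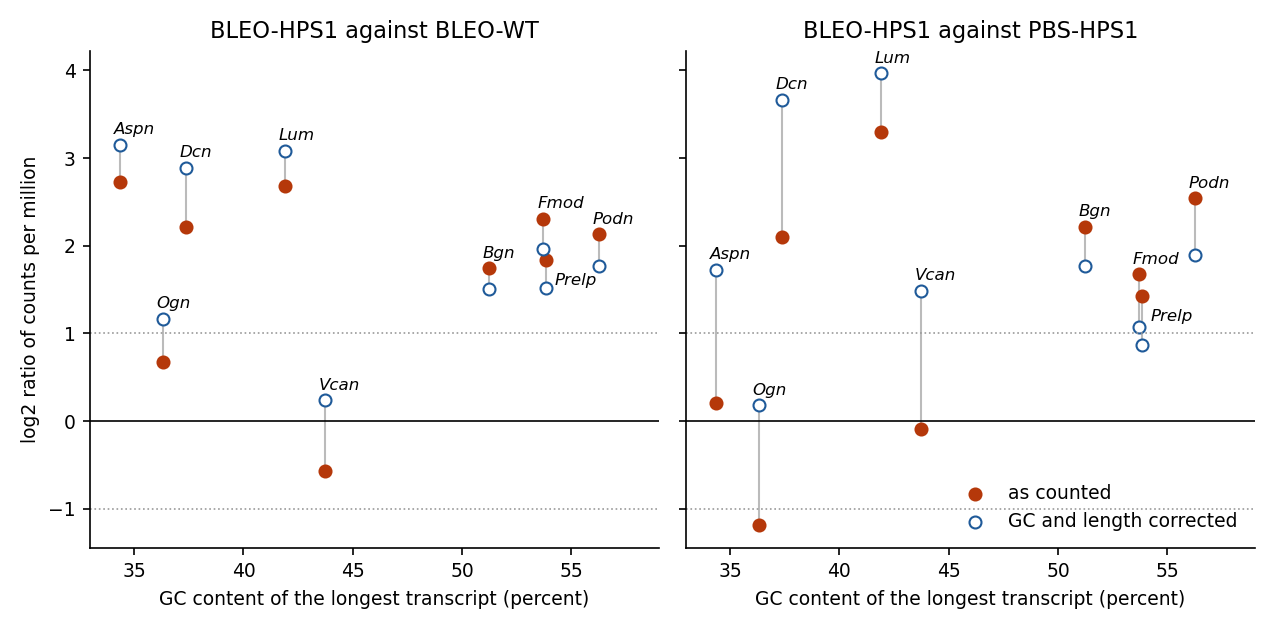
Log2 ratio of each compared gene against the GC content of its longest transcript, as counted (filled points) and with that trend removed (open points), for BLEO-HPS1 against BLEO-WT on the left and against PBS-HPS1 on the right. Open points lie above filled ones for the 5 genes under 45% GC and below them for the 4 genes over 50%, and *Ogn* on the right moves from -1.19 to 0.18.

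Other genes of proteoglycan biology were read from lists, by counts at 2-fold, against the 6.72% higher and 10.3% lower of all genes in BLEO-HPS1 against BLEO-WT. Of 10 further SLRP family genes, 4 were compared, and 1 was at least 2-fold higher in BLEO-HPS1 than BLEO-WT, *Podnl1* (log2 ratio 1.04), a relative of podocan. Its level was 30.2, 20.1, 16.8 and 34.7 CPM, highest in BLEO-HPS1 and PBS-WT. *Tsku*, a secreted SLRP that binds TGF-β and Wnt pathway proteins, had 1.19, 1.21, 6.70 and 9.61 CPM, higher in both bleomycin libraries. *Kera*, *Epyc*, *Optc* and *Nepn*, SLRPs of cornea, cartilage, eye and other tissues, had at most 0.0707 CPM.

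Among 15 compared genes of the lecticans, link proteins and hyaluronan, 1 was at least 2-fold higher in BLEO-HPS1 than BLEO-WT and none lower. This was *Has1*, a hyaluronan synthase, with 1.01, 3.36, 1.52 and 7.22 CPM, higher in both *Hps1*-/- libraries as *Fmod* was. *Cd44*, the main hyaluronan receptor, was at 813, 662, 590 and 330 CPM, lowest in BLEO-HPS1. Of 8 compared proteases that cleave versican or trim SLRP propeptides, 4 were at least 2-fold higher and none lower in the same comparison. *Bmp1*, which removes the propeptide of biglycan and cleaves procollagen, had 6.53, 9.71, 10.7 and 38.7 CPM (log2 ratio 1.86). The others were *Adamts4* (1.43), *Adamts5* (1.29) and *Adamts8* (1.24), while *Adamts1*, which cleaves versican, had 35.5, 67.3, 35.1 and 24.3 CPM. With PBS, 4 of the 8 were at least 2-fold higher in *Hps1*-/- than WT cells, *Adamts5* (1.27), *Adamts8* (1.29), *Adamts9* (1.21) and *Adamts15* (1.0), none lower, against 2.16% higher and 3.11% lower of all genes. By bleomycin, 2 were higher and none lower in WT mice (all genes 5.28% and 8.22%), and 4 were higher and 3 lower in *Hps1*-/- mice (all genes 26.2% and 19.6%).

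Enzymes that build the chains were counted in the same way. Of 25 genes of chondroitin and dermatan sulfate synthesis, 1 was at least 2-fold higher in BLEO-HPS1 than BLEO-WT, 4 were lower and 20 were within 2-fold. Their median was 0.17. Of all genes compared, 6.72% were higher and 10.3% lower to that extent. *Chpf*, a chondroitin polymerizing factor, was higher at 1.32, and *Xylt1*, which starts the chain (-1.19), *Csgalnact2*, which commits it to chondroitin (-1.14), *Dse*, the dermatan epimerase (-1.14), and *Papss2*, which makes the sulfate donor (-1.24), were lower. Between bleomycin and PBS, 3 of the 25 were higher and 1 lower in WT mice, against 5.28% higher and 8.22% lower of all genes. In *Hps1*-/- mice 9 were higher and 3 lower, where 26.2% of all genes were higher and 19.6% lower. None of 6 compared genes of keratan sulfate synthesis was 2-fold apart between BLEO-HPS1 and BLEO-WT. Of 17 compared genes listed as receptors and bound growth factors, 1 was higher and 4 were lower in that comparison. *Tgfb3* was higher at 1.18, and the biglycan receptors *Tlr2* (-1.02) and *Tlr4* (-1.58), the decorin receptor *Met* (-1.20) and the TGF-β receptor *Tgfbr1* (-1.69) were lower.

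Of 21 other proteoglycan core proteins compared, 7 were at least 2-fold higher in BLEO-HPS1 than BLEO-WT and none lower, with a median of 0.55. *Hspg2*, which encodes perlecan of basement membranes, had 17.9, 31.3, 36.1 and 112 CPM (log2 ratio 1.63). The others were *Gpc6* (2.12), *Col18a1* (1.62), *Gpc3* (1.51), *Sdc2* (1.28), *Esm1* (1.27) and *Col15a1* (1.21). *Srgn*, the granule proteoglycan of blood cells, was at 589, 463, 703 and 468 CPM, lower in each *Hps1*-/- library than in both WT libraries. Of 8 fibrillar and fibril-associated collagens, 6 were at least 2-fold higher in the same comparison, with a median of 1.84, and *Col12a1* (0.52) and *Col14a1* (0.82), which lie on the fibril surface, were not. Between bleomycin and PBS, 7 of these 8 collagens were at least 2-fold higher in WT mice and 7 in *Hps1*-/- mice, and of the 21 other proteoglycans 5 were higher and 4 lower in WT mice and 11 higher and none lower in *Hps1*-/- mice. Over all genes, 5.28% were higher and 8.22% lower in WT mice, and 26.2% higher and 19.6% lower in *Hps1*-/- mice.

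Fibroblast markers, listed to hold no structural matrix protein, were set beside the SLRPs. Of 18 compared of 20, 10 were at least 2-fold higher in BLEO-HPS1 than BLEO-WT and none lower, against 6.72% and 10.3% of all genes. The median of these markers was 1.18. Their summed level without *Lrp1*, which is also a macrophage gene, was 200 CPM in PBS-WT and 222 in PBS-HPS1, then 217 in BLEO-WT and 678 in BLEO-HPS1. None of the 20 was at 0 in any library. The members differed, with *Cd248* at 3.25, *Clec3b* at 3.0, *Pcolce* at 2.34 and *Pi16* at 1.98, while *Pdgfra* was at 0.65, *Tbx4* at 0.60, *Tbx5* at 0.48, *Dpp4* at -0.20 and *Lrp1* at -0.66. *Pcolce* encodes a secreted protein that binds procollagen. Of 10 smooth muscle and pericyte markers compared, 6 were at least 2-fold higher in BLEO-HPS1 than BLEO-WT and none lower. Of all genes, 6.72% were higher and 10.3% lower. The summed levels of the smooth muscle and pericyte markers were 33.4, 43.1, 42.4 and 101 CPM. Endothelial markers summed to 861, 816, 924 and 1195 CPM, T cell markers to 781, 608, 677 and 1216, B cell markers to 81.8, 103, 93.4 and 279, and ILC2 markers to 777, 701, 957 and 1056. In BLEO-HPS1 against BLEO-WT, 3 of 5 B cell markers were at least 2-fold higher, with a median of 1.57. So were 1 of 7 T cell markers, 2 of 11 ILC2 markers and none of 9 endothelial markers. None of these lists had a marker at least 2-fold lower. Within the ILC2 sum, *Thy1* had 306.5, 206, 224 and 551 CPM and *Arg1* had 8.34, 4.59, 387 and 257. Without *Thy1*, the ILC2 sum was 471, 495, 734 and 505 CPM, highest in BLEO-WT. Of the 11 ILC2 markers, 3 were at least 2-fold higher and 3 lower in BLEO-HPS1 than PBS-HPS1, with a median of -0.54. The higher ones were *Thy1*, *Klrg1* and *Arg1*. The lower ones were *Icos* (79.9, 77.5, 51.4 and 32.1 CPM), *Il7r* (180, 205, 149 and 76.9) and *Rora* (63.9, 78.4, 25.2 and 13.2). Over all genes, 26.2% were higher and 19.6% lower in that comparison. The part of any of these cell types in the SLRP differences was not tested.

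*Vcan* and *Ogn*, the 2 genes not called in BLEO-HPS1 against BLEO-WT, were set beside other markers. The monocyte genes *Ccr2* (332, 144, 330 and 148 CPM) and *F13a1* (209, 115, 220 and 97.6 CPM) were lower in both *Hps1*-/- libraries than in both WT libraries, as *Vcan* was before correction for GC content and length. Others of the same list were not, such as *Ly6c2* (139, 62.5, 63.4 and 146 CPM) and *Csf1r* (642, 379, 1347 and 1603 CPM), both highest in BLEO-HPS1. The 12 macrophage and monocyte markers summed to 12335, 8056, 19789 and 19400 CPM. Of these 12, 4 were at least 2-fold lower and 1 higher in BLEO-HPS1 than BLEO-WT, against 10.3% and 6.72% of all genes. Neutrophil markers summed to 1396, 408, 813 and 357 CPM, also lower in both *Hps1*-/- libraries. No macrophage, monocyte or neutrophil marker was at 0 in any library. Of 9 mesothelial markers, 6 were compared and *Krt19*, shared with epithelium, had 251, 203, 54.6 and 60.4 CPM, lower in both bleomycin libraries. Without *Krt19*, the mesothelial markers summed to 15.9, 17.4, 17.3 and 16.2 CPM, nearly level over the libraries, and the 9 epithelial markers to 1262, 910, 670 and 440 CPM. The part of any of these cells in the values of *Vcan* and *Ogn* was not tested.

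The genes whose profile over the 4 libraries was nearest to that of *Dcn*, by Euclidean distance of mean-centred log2 CPM among 10202 genes with at least 10 CPM in their highest library, were *Tnxb* (distance 0.0368), *Gpr153* (0.103), *Sod3* (0.223), *Pcolce* (0.259) and *Fzd2* (0.283). *Tnxb*, which encodes the matrix protein tenascin-X, had 17.2, 37.5, 34.9 and 161 CPM. For *Vcan* the nearest were *Hacd4* (0.181), *Sfxn5* (0.189), *Cd300ld* (0.195), *Ticam2* (0.220) and *Stxbp6* (0.240). *Hacd4* had 58.6, 33.5, 50.9 and 29.8 CPM. With 4 points per profile, such likeness is a description of these libraries.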

How the data were processed

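Total RNA of ILC2s sorted from mouse lungs was sequenced in 4 libraries, 1 per group, after preparation with a SMARTER mRNA kit. The authors deposited raw counts of reads for each Ensembl gene, not normalized. The aligner, the counting tool and its use of strand, the genome build and the annotation were not given in the sources used here. Counts were scaled with TMM factors of edgeR 4.0.16 in R 4.3.3, and log2 CPM used a prior count of 2. The 14840 genes with at least 1 CPM in at least 1 library were compared, and a gene at least 2-fold apart was called. With 1 library per group no quasi-likelihood test was run, and no additive model over the 4 libraries was fitted. PCR copies are not independent molecules, so intervals and floors cover counting error only. The interval of a difference of log2 ratios is a normal approximation on the log scale from the read counts. Positions, exon lengths and GC contents came from GENCODE M21 (GRCm38), in which 49056 identifiers were found. Gene levels per kilobase used the union of exons, and the loess correction used the longest transcript, with a span of 0.3. The genes and lists were chosen with earlier results of these data known, as was the correction. The text names all 10 genes, the list genes that were highest or at least 2-fold apart, defining markers, and the 5 nearest profiles to *Dcn* and to *Vcan*. Steps were tested on simulated data.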

Additional observations from a re-analysis of the deposited data

Results flagged for a closer look

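*Aspn* was flagged because its bleomycin ratio had opposite signs in the 2 genotypes. Bleomycin over PBS on the log2 scale gave -1.90 in WT mice (61 to 15 reads) and 0.20 in *Hps1*-/- mice (121 to 89 reads). The difference between the genotypes was not tested, since each group had 1 library. The interval of the value in *Hps1*-/- mice included 0 (-0.21 to 0.61), and with total counts it was -0.43. Corrected for GC content and length, the values were 1.73 in *Hps1*-/- mice, past 2-fold, and -1.0 in WT mice.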

How the results depend on the processing

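No paired analysis was possible because each group had 1 library and the labels carry no replicate numbers, and for the same reason no library was left out and DESeq2's test was not run. The 7 genes called higher in BLEO-HPS1 than BLEO-WT were 7 with DESeq2 size factors, total counts, upper-quartile factors, prior counts of 0.5 and 10, no filter and at least 10 counts in every library, 8 after the GC and length correction and 5 at a log2 threshold of 2. At that threshold 4 genes were called by bleomycin in *Hps1*-/- mice, 0 by bleomycin in WT mice and 0 by genotype with PBS. The 1 ratio of a called gene that changed sign was that of *Ogn* in BLEO-HPS1 against PBS-HPS1, 0.18 after the GC and length correction; that the correction acts on GC-poor genes follows from its construction. Over all genes, no filter gave 7657 called by genotype after bleomycin, 8710 by genotype with PBS, 8747 by bleomycin in WT and 17659 by bleomycin in *Hps1*-/- mice, since many more low genes were compared. A log2 threshold of 2 gave 284, 190, 439 and 1464 in the same order. The GC and length correction gave 1436 for BLEO-HPS1 against BLEO-WT, in place of 2527, and 3679 for BLEO-HPS1 against PBS-HPS1, in place of 6806. Total counts moved the median log2 ratio of all genes from -0.04 to -0.18, from -0.19 to 0.06, from 0.09 to -0.18 and from 0.25 to -0.43, and the percent of called genes that were higher from 39.5 to 24.9, from 41.0 to 68.4, from 39.1 to 19.1 and from 57.2 to 20.8, in the order of comparisons above. Upper-quartile factors gave 54.2% and 60.8% in the first 2 comparisons. *Aspn* with 15 reads in BLEO-WT and *Omd* with 9 to 19 reads are limited by depth.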
